A study of Mus musculus with 14 samples.

Results

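Of 24015 gene symbols counted in mouse pluripotent cells, 103 were well represented in both reference states, embryonic stem cells (ESC) and epiblast stem cells (EpiSC), and lower than both after EpiSC had been treated with the Mll1 inhibitor MM401. The genes were chosen by CPM, a gene's read count scaled to a common library total, averaged over the 2 libraries of a group. A gene was kept when its ESC and EpiSC means were both at least 10 CPM and when the highest mean of 4 groups was at most 0.5 times the lower reference mean. The 4 groups were MM401 day 3, the reverted line (rES) at passages 6 and 30 in MM401, and that line at passage 30 with no MM401. Dnmt3b was left out by the same rule. Of the 9417 genes at or above 10 CPM in both references, the members made up 1.09%, and of the 16247 genes with enough counts to be tested 0.634%. Because these levels chose the genes, their low values in those 4 groups are given as a description and were not tested. The libraries of MM401 passage 2 (P2) took no part in the choice.

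The study followed EpiSC, cultured with bFGF in Knockout DMEM with serum replacement, as they were moved to LIF with MM401, a compound that blocks the Mll1 histone methyltransferase complex. ESC (labelled mESf, CD1/JF1) were grown with LIF in GMEM with serum replacement on feeder cells, and EpiSC (9FEpi, CD1/JF1) were the starting cells. EpiSC of the same CD1/JF1 cross received 100 µM MM401 in LIF, serum replacement and Knockout DMEM for 3 days (day 3) or for 6 days, when they were at passage 2. The reverted line carried a different cross, CD1-deltaTSIX/JF1, and was kept in the same LIF medium. It was taken at passage 6 or 30 in 25 µM MM401 and at passage 30 with the inhibitor withdrawn (0 µM). Genotype, medium, passage and inhibitor therefore change together between the references and the reverted line, and their shares in a difference cannot be told apart. Day 3 and P2 differ from untreated EpiSC in medium, with LIF in place of bFGF, as well as in MM401. No group used here is EpiSC moved to LIF without MM401, so these shares cannot be told apart either. All groups derive from CD1 and JF1 mice, and each had 2 libraries, with no statement in the sources used here that they came from separate cultures. The p-values below therefore measure only the spread between these libraries, which may be technical.

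Library totals ran from 20831588 to 23677089 counts in 10 libraries and from 74952496 to 116086115 in the 4 libraries of MM401 day 3 and P2, which therefore measured low genes more precisely. Libraries within a group correlated at Pearson r of 0.999 on a log scale across genes. The ribosomal precursor Rn45s took 0.35% to 2.0% of counts. It took 0.548% in replicate 1 of passage 30 and 2.0% in replicate 2, the widest gap within a group. With Rn45s left out, 23 members still fell and 3 rose on withdrawal, and 38 fell and 8 rose from passage 6 to 30.

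Naive ESC and primed EpiSC model the epiblast before and after implantation, and both grow as joined colonies that express epithelial genes. Claudins and polarity proteins seal and orient such sheets, keratins 8, 18 and 19 form the filaments of simple epithelia, and the splicing factor Esrp1 sets epithelial exon choice. Cultures on feeder layers also hold fibroblasts and can hold blood-derived cells, so a bulk library reads several cell types at once. In such bulk samples fewer cells of a type and less RNA per cell cannot be told apart, and this holds for every difference below. The sources used here state feeder cells for ESC and do not say whether the EpiSC, treated or reverted cultures had them.

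The 103 members had lower reference means from 10.0 to 525.4 CPM, with a median of 28.6 CPM. The ratio of the highest low-group mean to the lower reference mean ran from 0.0245 to 0.498, with a median of 0.385. ESC was the lower reference for 68 members and EpiSC for 35. In each of the 103, all 8 libraries of the 4 low groups lay below all 4 reference libraries. Day 3 was the highest of the low groups for 49 members, passage 6 for 33, passage 30 for 12 and passage 30 without MM401 for 9. The lowest of the 4 was passage 30 without MM401 for 52 members, day 3 for 25, passage 30 for 22 and passage 6 for 4.

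The limit cut through a continuous range. Just inside it were Pctp (ratio 0.497), Crip1 (0.497) and Mfap3l (0.498). Just outside were Tspyl4 (0.501), Dab2 (0.503) and Ctss (0.503).

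**Figure D1:**
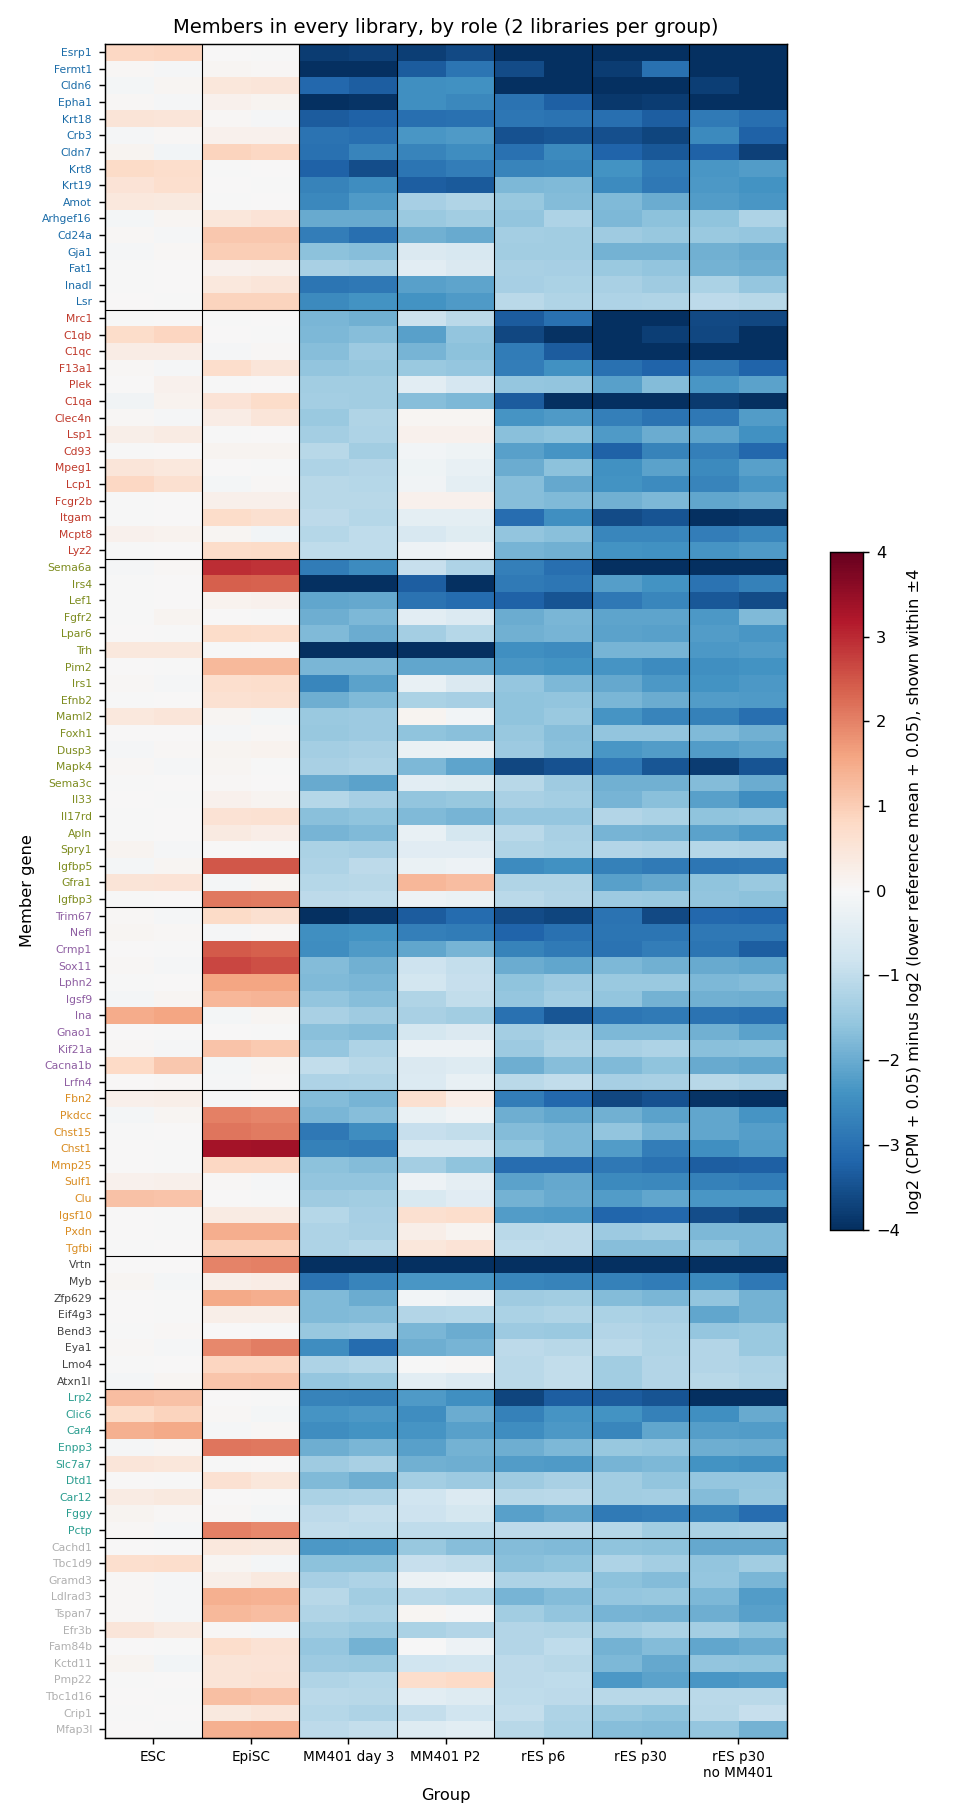
Heat map of 102 of the 103 members (rows, ordered by role) in 14 libraries (columns), coloured by the log2 ratio of each library's CPM to the lower of the ESC and EpiSC means; colours are clipped at 4 in either direction. The ESC and EpiSC columns lie near or above 0, the 8 libraries used by the rule are below, and the 2 P2 libraries differ from row to row.

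The members were spread over 20 chromosomes. Chromosomes 11, 4 and 2 held most of them (10, 9 and 8 members), which was 1.27%, 1.46% and 1.07% of their genes at 10 CPM or more in both references, beside 1.09% overall. The highest shares were on chromosomes 14 (7 of 332 genes, 2.11%) and 18 (4 of 231 genes, 1.73%). Only 3 pairs were neighbours in the annotation, Krt8 with Krt18 on chromosome 15, and C1qb with C1qc and C1qc with C1qa on chromosome 4. Promoter windows of 300 bases (250 before to 50 after the annotated start) were taken from RefSeq, build GRCm38.p6, for the 83 members that had one. The remaining 20 included Sulf1, Eya1, Cd24a, Krt19, Tbc1d16, Clu, Nefl, Fam84b, Foxh1, Clic6, Sema6a, Gramd3, Fbn2, Mapk4, Cd93, Esrp1, C1qa, Clec4n and Lsp1. The median window held 16 CpG pairs in the 83 members, 22 in the 7252 genes with a window and at least 10 CPM in both references, and 7 in all 27025 genes with a window. By role the median was 10 CpG pairs in the 13 epithelial members with a window and 3 in the 11 macrophage and other leukocyte members.

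Windows of 6 members show this range. They are the members with the lowest ratio (Vrtn) and the lowest P2 level relative to the references (Trh), the neighbouring keratins, a claudin and a complement chain. Each is written 5′ to 3′ on the gene's own strand with CpG pairs in capitals. Vrtn lies at chr12:84640769-84641068 (plus strand), Trh at chr6:92244601-92244900 (minus strand) and Krt8 at chr15:102004293-102004592 (minus strand). Krt18 lies at chr15:102027966-102028265 (plus strand), Cldn6 at chr17:23679115-23679414 (plus strand) and C1qb at chr4:136886151-136886450 (minus strand).
Vrtn: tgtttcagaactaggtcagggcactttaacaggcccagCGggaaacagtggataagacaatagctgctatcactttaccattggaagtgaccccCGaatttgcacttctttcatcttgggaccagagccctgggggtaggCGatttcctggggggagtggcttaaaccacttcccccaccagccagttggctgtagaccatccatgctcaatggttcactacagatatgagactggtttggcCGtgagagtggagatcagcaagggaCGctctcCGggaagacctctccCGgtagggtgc
Trh: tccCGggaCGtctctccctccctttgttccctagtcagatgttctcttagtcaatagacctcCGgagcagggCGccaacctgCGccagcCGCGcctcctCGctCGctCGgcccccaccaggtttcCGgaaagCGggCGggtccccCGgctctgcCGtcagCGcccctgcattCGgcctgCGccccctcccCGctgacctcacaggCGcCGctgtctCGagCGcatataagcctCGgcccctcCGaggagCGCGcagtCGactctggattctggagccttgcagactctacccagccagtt
Krt8: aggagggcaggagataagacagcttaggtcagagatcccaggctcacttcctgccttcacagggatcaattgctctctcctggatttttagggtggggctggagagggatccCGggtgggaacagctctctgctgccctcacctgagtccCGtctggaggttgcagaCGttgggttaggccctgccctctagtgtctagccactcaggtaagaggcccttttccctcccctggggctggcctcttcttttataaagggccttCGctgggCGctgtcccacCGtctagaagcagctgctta
Krt18: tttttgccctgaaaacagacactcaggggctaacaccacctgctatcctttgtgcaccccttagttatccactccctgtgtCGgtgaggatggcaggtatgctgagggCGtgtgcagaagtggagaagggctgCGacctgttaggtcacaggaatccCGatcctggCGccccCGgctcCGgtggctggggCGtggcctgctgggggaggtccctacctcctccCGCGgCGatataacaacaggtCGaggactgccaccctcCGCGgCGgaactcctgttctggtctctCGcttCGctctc
Cldn6: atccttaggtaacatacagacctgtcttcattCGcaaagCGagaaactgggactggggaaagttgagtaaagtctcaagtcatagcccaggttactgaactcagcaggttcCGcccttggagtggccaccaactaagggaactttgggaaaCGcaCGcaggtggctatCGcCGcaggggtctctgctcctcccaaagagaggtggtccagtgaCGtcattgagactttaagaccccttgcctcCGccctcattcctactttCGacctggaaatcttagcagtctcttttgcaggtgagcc
C1qb: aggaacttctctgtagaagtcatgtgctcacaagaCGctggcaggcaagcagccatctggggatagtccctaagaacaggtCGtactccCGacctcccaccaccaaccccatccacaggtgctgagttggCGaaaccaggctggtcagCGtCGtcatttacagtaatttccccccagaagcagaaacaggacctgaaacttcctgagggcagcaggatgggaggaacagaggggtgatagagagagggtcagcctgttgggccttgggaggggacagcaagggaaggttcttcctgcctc
The Trh window holds 28 CpG pairs and the Krt18 window 17, whereas those of Vrtn, Krt8 and C1qb hold 7, 6 and 6.

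Short motifs were searched on both strands of the same windows, as letters only. GGGCGG, bound by Sp and Klf factors, was in 53 of 83 member windows (63.9%), against 69.8% of windows of genes at 10 CPM or more in both references and 35.9% of all windows. The grainyhead motif AACCNGGTT was in 1 member window (1.20%) and in 0 of the 13 epithelial windows, and in 0.345% of windows of genes at 10 CPM or more in both references and 0.266% of all. The PU.1 motif GAGGAAGT was in 1 of 11 leukocyte windows and 2 member windows (2.41%), against 2.68% of windows of genes at 10 CPM or more in both references and 3.28% of all. TATAAA was in 6 member windows (7.23%), against 6.03% of windows of genes at 10 CPM or more in both references and 14.2% of all. The AP-1 motif TGACTCA was in 2 member windows (2.41%), both epithelial, against 3.12% at 10 CPM or more in both references and 5.17% of all. The Oct motif ATGCAAAT was in 1 (1.20%), against 1.27% and 1.75%, and the TCF motif CTTTGAT in 1 (1.20%), against 2.32% and 3.72%. Apart from those of GGGCGG and TATAAA, these shares rest on 1 or 2 windows each, so nothing is read from how they differ from those of genes at similar levels. A match is a match of letters, and the absence of one says only that these letters are not in this window.

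By role, 16 members are epithelial junction, keratin, polarity and adhesion genes. Their median ratio of the highest low group to the lower reference was 0.247. Of a list of 41 epithelial genes, 25 were at 10 CPM or more in both references, and 8 of these were members, namely Esrp1, Krt8, Krt18, Krt19, Cldn6, Cldn7, Crb3 and Lsr.

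Esrp1 measured 82.9 and 84.4 CPM in ESC and 46.8 and 46.3 CPM in EpiSC. It measured 3.3 and 3.43 CPM at day 3, 3.36 and 3.77 CPM at P2, 0.672 and 0.955 CPM at passage 6, 1.35 and 0.521 CPM at passage 30, and 1.05 and 1.04 CPM without MM401. The 10 libraries after MM401 were all far below the 4 reference libraries, and day 3 and P2 lay above the reverted line. The lower reference mean was 13.8-fold the highest low-group mean.

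Krt8 measured 60.1 and 56.9 CPM in ESC and 34.9 and 35.6 CPM in EpiSC. After MM401 it measured 3.7 and 2.99 CPM at day 3, 4.6 and 5.16 CPM at P2, 5.57 and 5.73 CPM at passage 6, 6.67 and 5.07 CPM at passage 30, and 7.01 and 7.48 CPM without MM401. Here day 3 held the lowest values and the inhibitor-free line the highest of the low groups, all below EpiSC. Its filament partner Krt18, whose promoter window is printed above beside that of Krt8, measured 84.8 and 83.8 CPM in ESC and 61.2 and 58 CPM in EpiSC. Krt18 stayed between 5.87 and 8.34 CPM in all 10 libraries after MM401. Krt19, another keratin of simple epithelia, measured 44.3 and 47.6 CPM in ESC and 30.4 and 30 CPM in EpiSC. Its lowest values were 3.03 and 2.89 CPM at P2, and its highest after MM401 were 8.59 and 8.77 CPM at passage 6. Keratins have processed copies elsewhere in the genome, and the sources used here do not say how reads with several matches were counted.

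Cldn6, a tight junction claudin of early embryonic epithelia, measured 52.9 and 59 CPM in ESC and 77.4 and 78.9 CPM in EpiSC. It measured 6.34 and 5.6 CPM at day 3, 10.1 and 10.4 CPM at P2, 3.46 and 3.51 CPM at passage 6, 2.45 and 2.56 CPM at passage 30, and 4.08 and 3.22 CPM without MM401. P2 was thus the highest of the groups after MM401 and still below every reference library. Cldn7, a related claudin, measured 13.5 and 11.5 CPM in ESC, 23.1 and 22.5 CPM in EpiSC and 0.9 to 2.2 CPM in the 10 libraries after MM401. Crb3, a Crumbs protein of the apical membrane, lay between 9.99 and 11.6 CPM in the references and between 0.758 and 2.08 CPM afterwards. Lsr, a receptor at tricellular junctions, differed from these in order, with 8.66 and 9.84 CPM at day 3, 9.74 and 10.6 CPM at P2 and 21.7 to 24.6 CPM in the reverted line, against 52.1 and 50.4 CPM in ESC and 95.7 and 95.4 CPM in EpiSC.

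**Figure D2:**
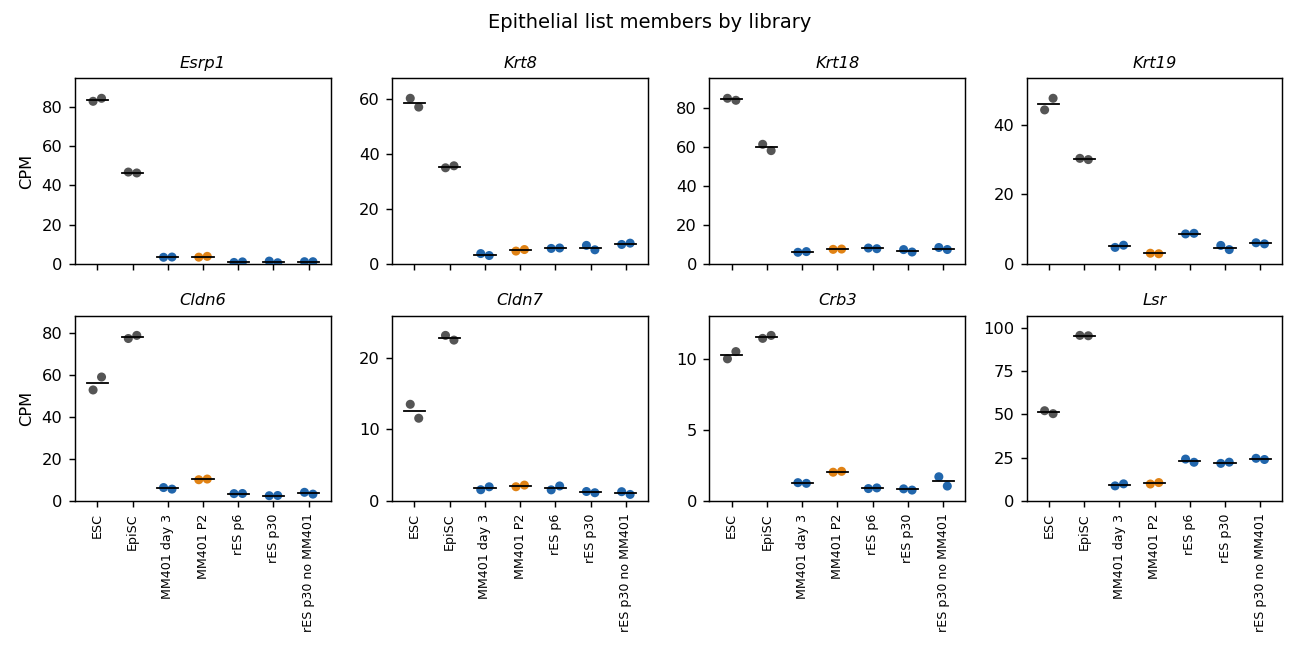
CPM of the 8 members on the epithelial list in each of the 14 libraries (points; black lines are means of 2); grey points are the references, orange points P2 and blue points the groups used by the rule, each panel with its own linear axis from 0. All 10 libraries after MM401 lie below the 4 reference libraries in every panel, and in Lsr the reverted line lies above day 3 and P2.

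The other epithelial members were Fermt1, Epha1, Amot, Arhgef16, Cd24a, Gja1, Fat1 and Inadl. Fermt1, a kindlin that activates integrins in epithelial cells, lay between 12.8 and 13.8 CPM in the references and between 0.458 and 1.67 CPM afterwards. The gap junction gene Gja1 measured 244 and 255 CPM in ESC, 498 and 491 CPM in EpiSC, 79.5 and 76.6 CPM at day 3, 169 and 159 CPM at P2 and 61.7 to 96 CPM in the reverted line. Fat1, a large atypical cadherin, was the member with the highest reference level, at 524 and 527 CPM in ESC and 595 and 600 CPM in EpiSC. It measured 214 and 206 CPM at day 3, 391 and 352 CPM at P2, 214 and 211 CPM at passage 6, 187 and 177 CPM at passage 30 and 141 and 136 CPM without MM401. For both genes P2 lay between the low groups and the references without overlap.

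Any list gene at 10 CPM or more in both references with this depth of difference was a member by the rule. The summed level of the other 33 measured genes, of which 17 reached that minimum, is therefore a description only. It was 2102 and 2118 CPM in ESC, 1898 and 1886 CPM in EpiSC, 1532 and 1516 CPM at day 3 and 1308 and 1306 CPM at P2. In the reverted line it lay between 1894 and 1994 CPM, within the range of the reference libraries.

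P2 was the group that the rule left out, so its levels are the same measure in libraries not used for the choice, although the reference levels were used. Both P2 libraries lay below all 4 reference libraries in 91 of 103 members (88.3%), against 24.3% of the 16247 genes tested and 28.9% of those at 10 CPM or more in both references. Both lay above all 4 in 4 members (3.88%), namely Gfra1, Fbn2, Igsf10 and Pmp22, against 26.3% of genes tested and 26% of those at 10 CPM or more in both references. The P2 mean was at most 0.5 times the lower reference in 51 members (49.5%), against 4.44% of genes tested and 1.81% of those at 10 CPM or more in both references. Of the rest, 40 had a P2 mean between 0.5 times the lower reference and the lower reference, and 12 were at or above it. The rule's own limit of 0.5 was therefore met at P2 by 51 of 103 members. The 40 were below the lower reference by less than that limit asks, and the description as low does not hold for those 12.

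Tested against EpiSC with edgeR's quasi-likelihood test at an adjusted p of 0.05, 92 of 103 members fell at P2 (89.3%, background 33.8% of genes tested) and 5 rose (background 42.1%). The median log2 fold change was -1.72. Among genes at 10 CPM or more in both references, 36.9% fell and 45% rose. Against ESC, 89 fell (86.4%, background 33.6%) and 7 rose (background 41%), with a median of -1.09. Of genes at 10 CPM or more in both references, 38.5% fell and 44% rose against ESC. The members were chosen for EpiSC and ESC levels that enter these contrasts, so the counts are read beside the background and not as independent of the choice. The same limit and backgrounds apply to the P2 counts by role below.

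All 16 epithelial members fell against EpiSC, with a median log2 fold change of -2.74, and in 14 of the 16 the P2 mean was at most 0.5 times the lower reference. The log2 fold change against EpiSC was -3.56 ± 0.10 (SE) for Esrp1, -2.70 ± 0.10 for Krt8, -2.85 ± 0.08 for Krt18 and -2.78 ± 0.08 for Cldn6. Of the 33 list genes that were not members, 20 fell and 7 rose, with a median of -0.33, against 33.8% falls and 42.1% rises among genes tested. At P2 the summed level of 20 feeder fibroblast markers, none of them a member, was 18117 and 17961 CPM, against 5463 and 5436 CPM in ESC, 5891 and 5945 CPM in EpiSC and 6138 and 6202 CPM at day 3. All 20 of these markers rose at P2 against EpiSC, with a median log2 fold change of 1.61. The part of this in any member's P2 level was not tested.

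**Figure D3:**
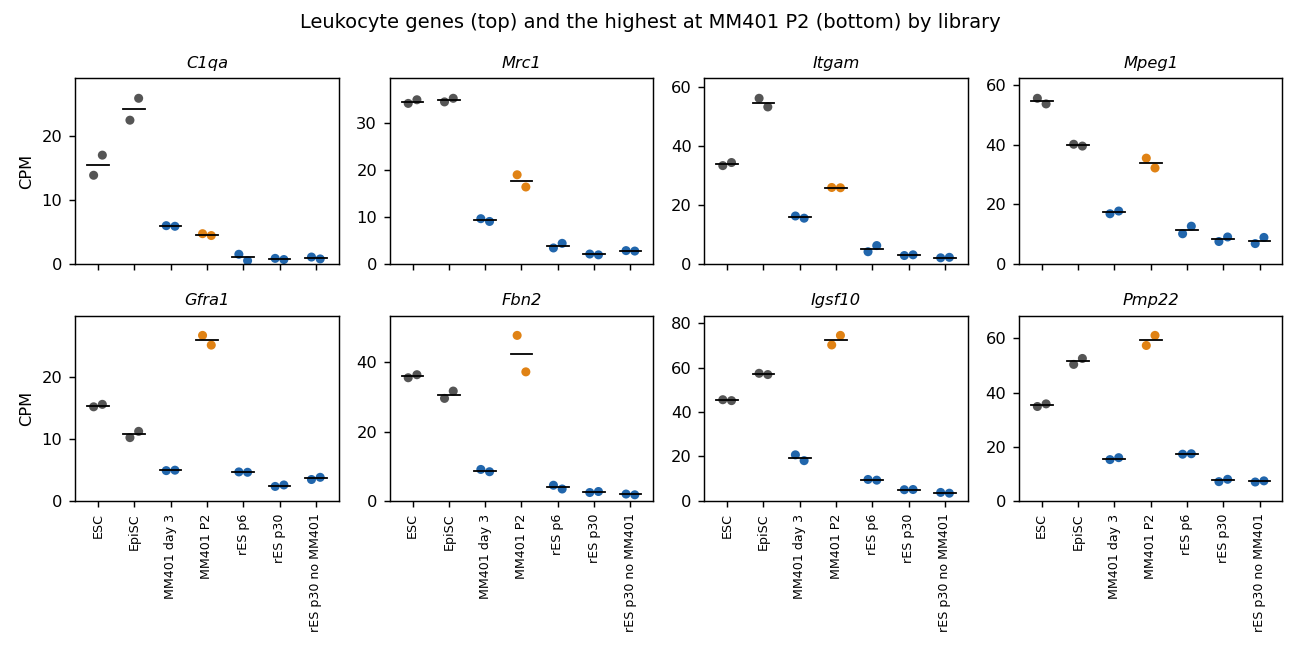
CPM in each library (points; black lines are means of 2) of 4 leukocyte members, C1qa, Mrc1, Itgam and Mpeg1 (top), and of Gfra1, Fbn2, Igsf10 and Pmp22 (bottom), with the references in grey, P2 in orange and the groups used by the rule in blue, each panel with its own linear axis from 0. P2 lies below the references in the top row and above them in the bottom row.

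A further 15 members are genes of macrophages and other leukocytes. Macrophages clear debris and make the C1q chains of complement, Mrc1 and Clec4n are lectin receptors, Itgam is an integrin subunit and Lyz2 is lysozyme. In all 15 of these members day 3 was the highest of the 4 low groups. Lyz2 measured 279 and 285 CPM in ESC, 469 and 479 CPM in EpiSC, 141 and 139 CPM at day 3, 248 and 258 CPM at P2, 77.1 and 75 CPM at passage 6, 53.3 and 52.6 CPM at passage 30 and 54.8 and 58.8 CPM without MM401. P2 thus stood just under ESC, while the reverted line was lowest. Lyz2 has a near-identical neighbour, Lyz1, and the split of reads between them is uncertain.

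Mrc1 measured 34.1 and 34.9 CPM in ESC, 34.4 and 35.2 CPM in EpiSC, 9.58 and 8.99 CPM at day 3, 18.9 and 16.3 CPM at P2 and 1.9 to 4.34 CPM in the reverted line. C1qb, whose window with few CpG pairs is printed above, measured 17.1 and 18.6 CPM in ESC, 10.4 and 10.1 CPM in EpiSC, 2.91 and 3.08 CPM at day 3, 2.23 and 3.36 CPM at P2 and 0.422 to 0.779 CPM in the reverted line. Unlike Mrc1, C1qb overlapped between day 3 and P2. C1qc overlapped too, with 4.04 and 4.76 CPM at day 3 and 3.56 and 4.16 CPM at P2. C1qa measured 5.98 and 5.88 CPM at day 3 and 4.72 and 4.43 CPM at P2, a fall of -0.40 ± 0.13 on the log2 scale that was lost without replicate 2 of P2 (-0.35).

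At P2 the leukocyte members as a group had a median ratio to the lower reference of 0.764. Against EpiSC, 9 of the 15 fell and 1, the actin-binding protein Lsp1, rose, with a median log2 fold change of -0.425. Falls made up 89.3% of all members and 33.8% of genes tested. Clec4n, Lsp1 and the inhibitory Fc receptor Fcgr2b were at or above the lower reference. Fcgr2b measured 26.9 and 26.5 CPM at P2, within the 23.2 to 27.4 CPM span of the references, and its rise against ESC of 0.17 ± 0.08 on the log2 scale (edgeR adjusted p = 0.044) was lost when any 1 of the 4 libraries was left out (0.14 to 0.20).

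Of a macrophage list of 28 measured genes, chosen after the members' names were seen, 8 were members. The summed level of the 20 that were not members was 302 and 303 CPM in ESC, 249 and 252 CPM in EpiSC, 246 and 240 CPM at day 3 and 307 and 314 CPM at P2. It was 348 and 349 CPM at passage 6, 320 and 319 CPM at passage 30 and 292 and 275 CPM without MM401. This sum was thus highest at passage 6 and lowest at day 3. A single gene, Laptm5, made up most of it in the reverted line (253 CPM at passage 6). The sum therefore does not show the order of the other list genes. Of the 20 list genes that were not members, 14 had all 4 low-group means below the lower reference and 2 were at most 0.5 times it. Of the defining macrophage markers, Csf1r averaged 13 CPM in ESC, 8.3 CPM in EpiSC, 3.3 CPM at day 3, 6.2 CPM at P2 and 0.7 to 1.5 CPM in the reverted line, and Emr1 (F4/80) averaged 10.0, 21.4, 5.6 and 8.1 CPM in the same first 4 groups and 1.0 to 1.2 CPM in the line. Other list genes went the other way. Laptm5, a lysosomal membrane protein of blood cells, averaged 77.8 CPM in ESC and 43.3 CPM in EpiSC, 133 CPM at day 3, 107 CPM at P2, and 253, 249 and 218 CPM in the line at passage 6, passage 30 and passage 30 without MM401. Csf3r, the receptor for granulocyte colony-stimulating factor, averaged 2.47 CPM in ESC, 0.674 CPM in EpiSC and 9.13 to 13.6 CPM in the line. Cd68, a macrophage lysosomal protein, was mixed, with 35.2 CPM in ESC, 26 CPM in EpiSC, 42.1 CPM at P2 and 31.4 CPM at passage 6. It lay below both references at day 3 (21.85 CPM), passage 30 (18.1 CPM) and passage 30 without MM401 (15.2 CPM). The share of such cells in a library was not measured, and its part in these values was not tested.

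**Figure D4:**
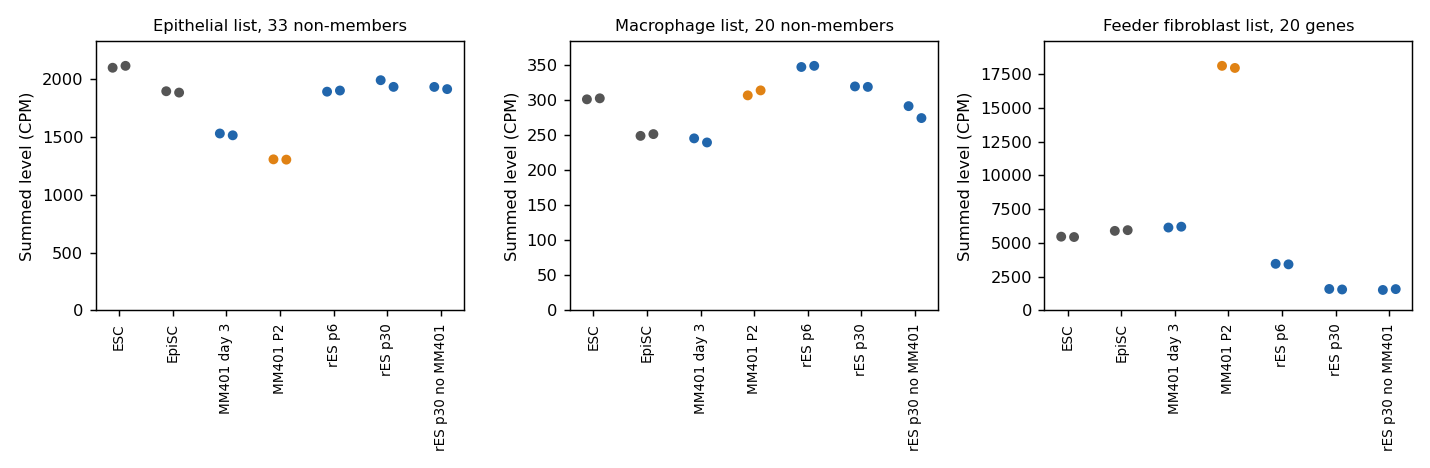
Summed CPM per library (points, 2 per group) for the 33 epithelial list genes that are not members, the 20 macrophage list genes that are not members and the 20 feeder fibroblast markers, on linear axes from 0, with references in grey, P2 in orange and the groups used by the rule in blue. The feeder marker sum is at 18117 and 17961 CPM at P2 and lower elsewhere. The macrophage sum without members is highest at passage 6 (348 and 349 CPM) and lowest at day 3 (246 and 240 CPM). Laptm5 alone averages 253 CPM at passage 6 and makes up most of that sum in the reverted line.

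The matrix role held 10 members, which encode matrix proteins or enzymes that modify the matrix. Fbn2 is a fibrillin of microfibrils, Tgfbi binds collagen and integrins, Sulf1 trims sulphate groups from heparan sulphate, and Chst1 and Chst15 add sulphate to glycan chains. Fbn2 measured 35.6 and 36.4 CPM in ESC, 29.6 and 31.7 CPM in EpiSC, 9.08 and 8.42 CPM at day 3, 47.8 and 37.3 CPM at P2, 4.51 and 3.43 CPM at passage 6, 2.41 and 2.7 CPM at passage 30 and 1.97 and 1.75 CPM without MM401. P2 was above every reference library, and the reverted line was lowest. Igsf10, an immunoglobulin-domain protein, measured 70.3 and 74.6 CPM at P2, against 45.6 and 45.2 CPM in ESC, 57.5 and 56.9 CPM in EpiSC, 20.7 and 18.1 CPM at day 3 and 3.46 to 9.65 CPM in the reverted line.

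All 10 matrix members rose from day 3 to P2, with a median log2 fold change of 1.60, against 37.5% of genes tested and 34.6% of those at 10 CPM or more in both references. Day 3 was placed low by the rule, so nothing is read from this count. Their median P2 ratio to the lower reference was 0.845, and 4 of the 10, Fbn2, Igsf10, Pxdn and Tgfbi, were at or above the lower reference. Against EpiSC, 8 fell and 2, Fbn2 (0.62 ± 0.09) and Igsf10 (0.49 ± 0.06), rose on the log2 scale. Beside this, 89.3% of all members and 33.8% of genes tested fell. The rise of Fbn2 against ESC, 0.23 ± 0.09, dropped to 0.04 without replicate 1 of P2 and was no longer called. These matrix changes ran beside the rise of the feeder marker sum at P2 given above, and its part in them was not tested.

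Signalling genes made up the largest role, with 21 members. Trh, which encodes the precursor of thyrotropin-releasing hormone, measured 495 and 493 CPM in ESC and 368 and 374 CPM in EpiSC. It measured 5.36 and 4.38 CPM at day 3, 1.16 and 1.39 CPM at P2, 68.2 and 65 CPM at passage 6, 103 and 102 CPM at passage 30 and 75.1 and 79.1 CPM without MM401. The treated EpiSC were thus lowest and the reverted line stood between them and the references, with no overlap. Against EpiSC the log2 fold change at P2 was -8.03 ± 0.07, and against day 3 it was -1.95 ± 0.10.

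Among ligands and receptors, Sema6a and Sema3c are semaphorins, Efnb2 an ephrin, Epha1 an Eph receptor, Fgfr2 an FGF receptor and Gfra1 a GDNF co-receptor. Sema6a measured 16.6 and 18.1 CPM in ESC, 134 and 129 CPM in EpiSC, 2.44 and 2.98 CPM at day 3, 9.22 and 7.35 CPM at P2 and 0.521 to 2.59 CPM in the reverted line. Gfra1 measured 15.1 and 15.5 CPM in ESC, 10.2 and 11.2 CPM in EpiSC, 4.87 and 4.94 CPM at day 3, 26.6 and 25.1 CPM at P2 and 2.32 to 4.66 CPM in the reverted line. Gfra1 was the member with the highest P2 level relative to the lower reference (2.42-fold), and it rose at P2 against EpiSC by 1.42 ± 0.09 and against ESC by 0.75 ± 0.09 on the log2 scale. Efnb2 lay at 83.7 and 84.4 CPM in ESC, 129 and 130 CPM in EpiSC, 34.8 and 33.2 CPM at P2 and between 17.4 and 27.9 CPM in the 8 libraries used by the rule. Fgfr2 lay between 18.9 and 20.7 CPM in the references, at 14.4 and 12.9 CPM at P2 and between 3.85 and 5.54 CPM in the other groups. Its fall at P2 against EpiSC, -0.34 ± 0.10, was lost without replicate 2 of P2, where it was -0.25.

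Downstream of these, Lef1 is a transcription factor of Wnt signalling, Foxh1 a Smad partner in Nodal signalling, Spry1 and Il17rd inhibitors of FGF signalling, and Irs1 and Irs4 adaptors of insulin receptors. Lef1 measured 108 and 109 CPM in ESC, 120 and 122 CPM in EpiSC, 25.7 and 26.2 CPM at day 3, 13.9 and 12.8 CPM at P2 and 9.04 to 17.7 CPM in the reverted line. It was among the 14 members that fell from day 3 to P2, by 0.98 on the log2 scale. Foxh1 lay between 71.3 and 76.8 CPM in the references and between 19.6 and 27.2 CPM in all 10 libraries after MM401. Il17rd measured 119 and 121 CPM in ESC, 179 and 183 CPM in EpiSC and 33.3 to 53.7 CPM afterwards. Spry1 lay between 41.5 and 46.6 CPM in the references, at 31.2 and 31.1 CPM at P2 and between 17.1 and 19.6 CPM in the other groups.

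Shares of members in the pathway lists are read beside the 1.09% over all genes at 10 CPM or more in both references, and the lists were chosen with earlier results known. Of 18 primed pluripotency genes at 10 CPM or more in both references, 4 were members (Sox11, Lef1, Cldn6 and Krt18). At the same minimum, 3 of 20 Eph, ephrin and semaphorin genes were members (Epha1, Efnb2 and Sema6a), 2 of 14 FGF and ERK feedback genes (Fgfr2 and Spry1) and 2 of 5 trophoblast genes (Krt8 and Krt18). The lists with 1 member were Nodal (Foxh1 of 20 genes), Wnt (Lef1 of 15), primitive endoderm (Lrp2 of 9), neural (Sox11 of 7) and ion channel (Clic6 of 9). The other 17 of the 27 lists, which include the naive, core pluripotency and imprinted genes and the feeder markers, held none. At P2 against EpiSC, 20 of the 24 measured primed pluripotency genes fell and 2 rose, with a median log2 fold change of -1.98. Without the 4 members, whose EpiSC levels entered the choice, 16 of 20 fell and 2 rose, with a median of -1.40. The background was 33.8% falls and 42.1% rises among genes tested. Of the 19 FGF and ERK genes 10 fell and 8 rose, and 8 fell and 8 rose among the 17 that were not members. Of the 22 Eph, ephrin and semaphorin genes 10 fell and 10 rose, and 7 fell and 10 rose among the 19 that were not members.

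Another 8 members act in transcription, chromatin or translation. Vrtn, the vertnin gene, known from pigs for its link to vertebral number, had the lowest ratio of all members. It measured 16.2 and 16.2 CPM in ESC, 64.5 and 65.7 CPM in EpiSC, 0.424 and 0.362 CPM at day 3 and 0.253 and 0.373 CPM at P2. In the reverted line it measured 0.096 and 0.0868 CPM at passage 6, 0.465 and 0.332 CPM at passage 30 and 0.183 and 0.331 CPM without MM401. All 10 libraries after MM401 were near 0, with the lower reference mean 40.8-fold the highest low-group mean. The values at passage 6 rest on 2 counts in each library. At P2 the log2 fold change was -7.53 ± 0.15 against EpiSC and -5.68 ± 0.16 against ESC.

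Myb, a transcription factor of progenitor cells, lay between 17.8 and 23.3 CPM in the references and between 2.38 and 3.71 CPM in all 10 libraries after MM401. Bend3, a chromatin protein that binds DNA through BEN domains, lay between 171 and 179 CPM in the references, at 48.7 and 43.7 CPM at P2 and between 59.3 and 76.9 CPM in the other groups, so that P2 was its lowest group. Eif4g3, a translation initiation factor, measured 181 and 175 CPM in ESC, 209 and 210 CPM in EpiSC, 52.3 and 52.9 CPM at day 3, 79.7 and 80.6 CPM at P2 and 41.9 and 47.7 CPM without MM401. All 8 of these members fell at P2 against EpiSC, with a median log2 fold change of -1.63, beside 89.3% of all members and 33.8% of genes tested.

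The neuronal cytoskeleton, channel and guidance role held 11 members, among them the neural transcription factor Sox11, and 9 members encode transporters or metabolic enzymes. All 11 and all 9 fell at P2 against EpiSC, with median log2 fold changes of -2.27 and -2.09. So did 89.3% of all members, chosen in part by EpiSC levels, and 33.8% of genes tested. Nefl, a neurofilament chain, lay between 72.1 and 78.9 CPM in the references and between 8.02 and 14.1 CPM afterwards. Crmp1, which links semaphorin signals to microtubules, measured 30.5 and 29.5 CPM in ESC, 164 and 157 CPM in EpiSC and 2.98 to 8.2 CPM afterwards. Both genes were low in every library after MM401, P2 included. Lrp2 (megalin), an endocytic receptor of the visceral endoderm and kidney, measured 152 and 147 CPM in ESC, 66.1 and 64.1 CPM in EpiSC, 10.2 and 9.94 CPM at day 3, 13.5 and 11.9 CPM at P2 and 4.02 to 6.64 CPM in the reverted line. Slc7a7, a transporter of basic amino acids, measured 136 and 131 CPM in ESC, 95.9 and 97.7 CPM in EpiSC, 35.9 and 39.1 CPM at day 3, 25.2 and 25.2 CPM at P2 and 17.6 to 27.7 CPM in the reverted line.

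The 13 other members are membrane, cytoskeleton and trafficking genes. Pmp22, a membrane protein of myelin, measured 34.8 and 35.8 CPM in ESC, 50.4 and 52.6 CPM in EpiSC, 15.2 and 16 CPM at day 3, 57.4 and 61.1 CPM at P2, 17.2 and 17.4 CPM at passage 6 and 6.96 to 7.96 CPM at passage 30 with or without MM401. It was the only 1 of the 13 that rose at P2 against EpiSC (0.35 ± 0.06), and the other 12 fell, beside 89.3% of all members and 33.8% of genes tested.

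**Figure D5:**
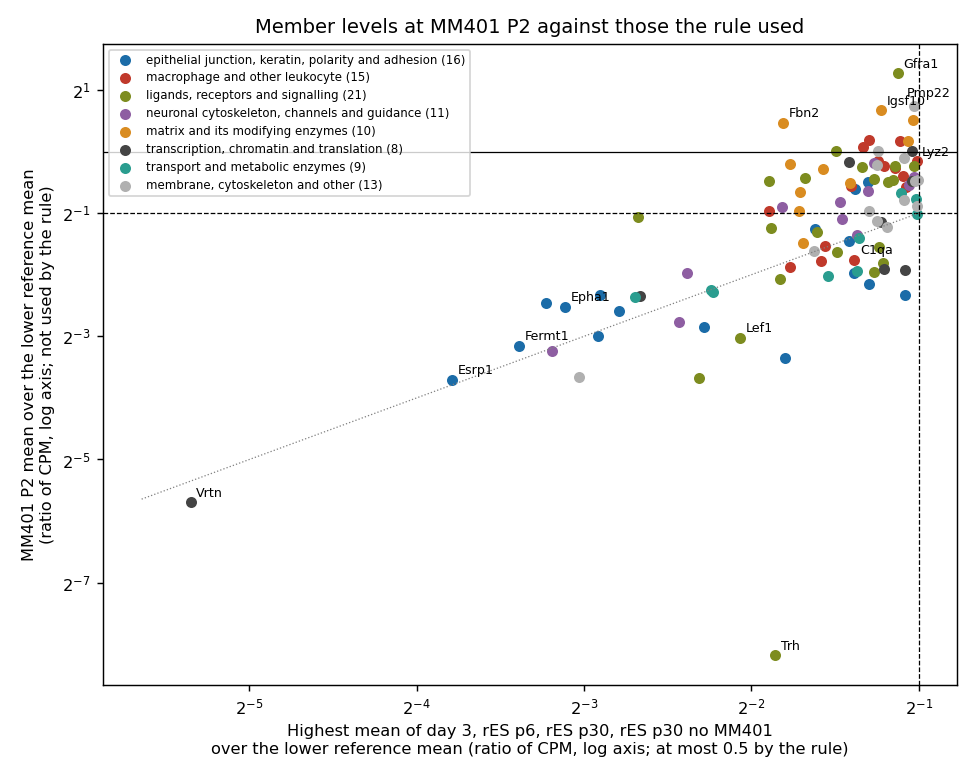
Mean CPM at P2 over the lower reference mean (vertical, log axis) against the highest mean of the 4 groups used by the rule over the same reference (horizontal, log axis), 1 point per member, coloured by role; the dashed lines mark a ratio of 0.5, the solid line a ratio of 1 and the dotted line equal ratios. The rule places every point left of the vertical line, and 51 members also lie at or below the horizontal dashed line; both axes share the reference means as divisor.

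From day 3 to P2, 77 of 103 members rose (74.8%, background 37.5% of genes tested) and 14 fell (13.6%, background 33.3%), with a median log2 fold change of 0.73. At 10 CPM or more in both references, 34.6% of genes rose and 45.1% fell. The rule placed day 3 low, so the background is given without reading the excess of rises as a result. The members with the greatest rise were Gfra1 (2.37 ± 0.09), Fbn2 (2.25 ± 0.09) and Chst1 (2.08), a sulphotransferase. Chst1 measured 2.23 and 2.15 CPM at day 3 and 9.38 and 9.42 CPM at P2, still below the 14.8 and 14.7 CPM of ESC. Falls were led by Trh, Lef1 and Krt19 (-0.79 ± 0.10). Of the 16 epithelial members 12 rose from day 3 to P2 and 1, Krt19, fell, although all 16 had both P2 libraries below every reference library.

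The rule did not set which reference was higher. Between ESC and EpiSC, 33 members were higher in ESC (32%, background 37% of genes tested) and 51 lower (49.5%, background 37.5%), with a median log2 fold change of -0.17. At 10 CPM or more in both references, 41.8% of genes were higher and 40% lower. Lower in ESC were Chst1 (-3.19), Sema6a (-2.77), Sox11 (-2.46), a neural and primed epiblast transcription factor, and Igfbp5 (-2.33), which binds insulin-like growth factors. Higher in ESC were Ina (1.69), a neuronal intermediate filament, Car4 (1.63), a carbonic anhydrase, Lrp2 (1.36) and Clu (1.30), a secreted chaperone. Sox11 measured 33.5 and 31.5 CPM in ESC and 206 and 192 CPM in EpiSC, and 16.6 to 18.3 CPM at P2. Car4 measured 42.4 and 45 CPM in ESC, 15.1 and 16.3 CPM in EpiSC and 2.53 to 3.65 CPM in all 10 libraries after MM401. Scaled by total counts in place of TMM factors, 25 members were higher and 58 lower in ESC. The members thus included genes of either reference, each below the lower one after MM401 by the rule.

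Within the reverted line, the direction between passages and with withdrawal was also not set by the rule. From passage 6 to passage 30 in 25 µM MM401, 38 members fell (36.9%, background 14.4% of genes tested) and 8 rose (7.77%, background 11.3%), with a median log2 fold change of -0.22. Among genes at 10 CPM or more in both references 17.4% fell and 17% rose. Without replicate 2 of passage 30, the library with the higher Rn45s share, 34 members fell and 9 rose. Of the 15 leukocyte members 9 fell and 0 rose, with a median of -0.49, and 6 of the 10 matrix members fell. Those that fell included Sema6a (-1.35 ± 0.28), C1qc (-1.33 ± 0.32), Pmp22 (-1.18 ± 0.10) and Mcpt8 (-0.97 ± 0.12), a protease of basophils. Trh (0.65 ± 0.05), Lef1 (0.64 ± 0.10) and Slc7a7 (0.45 ± 0.07) were among the 8 that rose. Vrtn was also called higher, on 2 and 2 counts at passage 6 against 11 and 7 at passage 30, and was not called without either library of passage 6 or without replicate 1 of passage 30. C1qc was not called without replicate 1 of passage 6 (-1.03). The feeder marker sum was 3452 and 3413 CPM at passage 6 and 1588 and 1551 CPM at passage 30, and all 20 markers fell. Its part in the members' falls was not tested.

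When MM401 was withdrawn at passage 30, 77 of the 103 members were not called, 23 fell (22.3%, background 9.3% of genes tested) and 3 rose (2.91%, background 10.4%). The median log2 fold change was -0.14. Of genes at 10 CPM or more in both references, 14% fell and 16.1% rose. The count of falls was 15 without replicate 2 of passage 30 and 13 without replicate 2 of the inhibitor-free line, and that of rises was 1 to 2 when any 1 library was left out. Eif4g3 fell by 0.70 on the log2 scale, from 74.7 and 70.4 CPM to 41.9 and 47.7 CPM. Lef1 (-0.76 ± 0.10), Slc7a7 (-0.60 ± 0.07), Lrp2 (-0.61 ± 0.15) and Trh (-0.42 ± 0.05) also fell. Fermt1 (-1.09 ± 0.39) and Epha1 (-0.83 ± 0.24) had larger falls with wider errors. Neither was called without replicate 2 of passage 30 (-0.60 and -0.77), nor without replicate 1 (-0.79 and -0.79) or 2 (-1.44 and -0.85) of the inhibitor-free line. The rises were those of Gfra1 (0.56 ± 0.18), Crip1 (0.55 ± 0.13) and Cldn6 (0.54 ± 0.18). Gfra1 was not called without replicate 1 of passage 30 (0.48) or replicate 2 of the inhibitor-free line (0.48), and Crip1 not without the latter (0.45). Cldn6 was not called without replicate 1 (0.49) or 2 (0.58) of passage 30 or replicate 1 of the inhibitor-free line (0.36). No member reached the lower reference after withdrawal, which the rule itself fixes.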

How the data were processed

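RNA was sequenced in 14 libraries, 2 in each of 7 groups. The authors deposited raw read counts per gene; TopHat2, Subread, DESeq and build mm9 appear, without versions, in the submitters' processing notes. The sources used here do not give strand or the treatment of reads with several matches. The table also held 2 columns of values that were not used, and 27 gene names had been turned into dates and stay as written. No member is among them.

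CPM was a gene's count divided by its column total. The members, roles and gene lists were chosen with earlier results of these data known, and the roles and the macrophage list after the members were seen. Tests used edgeR 4.0.16 (R 4.3.3): filterByExpr (16247 genes, including all 103 members), TMM factors, 1 mean per group over all 14 libraries, robust quasi-likelihood F tests, Benjamini-Hochberg adjustment over all genes tested and a threshold of 0.05. Errors of log2 fold changes are the fold change divided by the square root of F. The fit was tested on simulated data. DESeq2 1.42.0, other scalings, no filter, a 2-fold limit, a replicate block, fits of 4 libraries and leaving out each library were alternatives. Thinning the deep libraries and leaving out Rn45s were added after seeing the data. Named genes were those with the smallest ratios, the highest lower reference, the most extreme called changes per comparison, membership of a list or a place at the limit. Others, such as Nefl and Myb, were chosen after their values were seen, to show a role. CPM does not correct for gene length, so ranks and sums of CPM across genes are of read counts and not of transcript numbers. The values of 1 member are not reported here singly, though it is counted among the 103. No member had a count of 0 in any library, and 1 member had a count of 3 or fewer.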

Additional observations from a re-analysis of the deposited data

How the results depend on the processing

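The number of genes meeting the rule was 66 with a reference minimum of 20 CPM, 37 with a stricter limit on the ratio (3-fold), 256 with a looser one (1.5-fold) and 51 when P2 had to meet it too. Leaving out 1 library gave 102 to 107. With TMM-scaled values 95 genes met the rule, 91 of them members, and with a minimum of 5 CPM 152 did.

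Asking for a 2-fold change as well, higher and lower calls were 1 and 68 (P2 against EpiSC), 0 and 56 (P2 against ESC) and 34 and 1 (P2 against day 3). They were 5 and 22 (ESC against EpiSC), 0 and 1 (withdrawal) and 1 and 3 (passage 30 against 6). Rises on withdrawal numbered 1 in the fit of those 4 libraries. Leaving out 1 library gave 1 to 2 rises and 13 to 19 falls on withdrawal. The same gave 90 to 92 falls for P2 against EpiSC, and 86 to 87 falls and 5 to 6 rises against ESC. It gave 74 to 76 rises for P2 against day 3, 46 to 49 members lower in ESC than EpiSC, and 27 to 34 falls from passage 6 to 30.

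Same-numbered libraries were not a pairing by the labels, and their deviations from group means correlated at -0.006 to 0.040. With the replicate number as a block, 5 members were higher and 92 lower at P2 against EpiSC, 6 and 89 against ESC, 75 and 14 against day 3, 32 and 50 in ESC against EpiSC, 3 and 23 on withdrawal, and 8 and 38 between passages. DESeq2 gave 5 and 92, 5 and 89, 73 and 14, 30 and 49, 3 and 23, and 8 and 36. Of 3337 alternative values for 287 named gene changes, 100 were no longer called and 0 reversed.

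The lowest values in the reverted line rest on few counts, and the libraries of day 3 and P2 are deeper than the others. Thinned to the depth of the others, they gave 5 members higher and 92 lower at P2 against EpiSC. Against ESC the thinned counts were 6 and 90 (7 and 89 unthinned), and against day 3 they were 72 and 11 (77 and 14 unthinned). The fall of C1qa against day 3 and the rise of Fbn2 against ESC were among the calls lost by thinning.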
